A study of Arabidopsis with 2 samples.

Results

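Pectin is the gel-forming polysaccharide of the plant cell wall, and its main chain of galacturonic acid is secreted with many of its acid groups methylated. Pectin methylesterases (PMEs) take these methyl groups off inside the wall, which lets calcium cross-link the chains or opens them to cleavage, while polygalacturonases (PGs) and pectate lyases cut the demethylated chain. Small inhibitor proteins hold some enzymes of these kinds back, and the degree of pectin methylation is known to affect how readily walls yield where shoot organs grow out and separate. The genes described here were those whose probe on a whole-genome Arabidopsis array was described as a pectinesterase, pectin methylesterase, polygalacturonase or pectate lyase. They numbered 179 of the 21500 gene probes, with 1 probe for each gene, and all 179 identifiers were found among the RefSeq genes of TAIR10.1. By the array's descriptions 84 were PMEs, 67 were PGs, 26 were pectate lyases and 2 were PG-inhibiting proteins.

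The embryos compared were of the torpedo stage and of 2 genotypes. The cuc1 cuc2 embryos carried the alleles cuc1-1 and cuc2-1, which together remove the NAC transcription factors that set up the boundary between the cotyledons and the shoot meristem, and they were progeny of cuc1-1 cuc2-1/+ plants, since the double mutant itself forms no shoot. The Ler (Landsberg erecta) embryos were wild type, and no other agent or treatment was applied to either genotype. Each genotype was represented by 1 RNA extract from about 100 pooled whole embryos, and the same pair of extracts was hybridized to 2 arrays with the dyes exchanged. In experiment 1 Cy5 marked cuc1 cuc2 and Cy3 marked Ler, and in experiment 2 the dyes were the other way round. No test between genotypes can therefore be made, and the errors given below are those of the scanner software for single spots or the difference between the hybridizations, both of which measure technical error alone. In pooled whole embryos, fewer cells of a type and less RNA in each cell cannot be told apart. Every ratio is the log2 of cuc1 cuc2 over Ler after the scanner's dye normalization, so a positive value is a higher signal in cuc1 cuc2.

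The probes of the mutated genes and of a known downstream gene were checked first. The CUC2 probe (AT5G53950) gave signals of 430 and 297 scanner units in cuc1 cuc2, against 663 and 594 in Ler, in experiments 1 and 2. The CUC1 probe (AT3G15170) gave 5610 and 4811 in cuc1 cuc2 and 5529 and 5195 in Ler, so it did not separate the genotypes, and where it lies relative to the mutation was not examined. SHOOT MERISTEMLESS (STM, AT1G62360), a homeobox gene of the shoot meristem, had log2 ratios of -2.18 and -1.99. Between 87.5% and 88.8% of all gene probes were classed by the scanner software as well above background in a given channel. The probes of all 4 pollen marker genes examined were in this class in every channel. The class may thus be a lenient one, although whether embryos express these genes was not tested. Their summed signals were 2134 and 1750 in cuc1 cuc2 and 2219 and 1809 in Ler. A LAT52-like gene (AT5G45880) gave 927 and 676 of the cuc1 cuc2 sums. All 6 embryo markers were in the class as well, with summed signals of 40818 and 43832 in cuc1 cuc2 and 39281 and 41351 in Ler. LEC1 alone gave 27862 and 30133 of the cuc1 cuc2 sums. Of 6 seed coat markers and 6 endosperm markers, 3 each were in it on both arrays in at least 1 genotype, and the seed coat genes BAN, TT12 and PER36 and the endosperm genes MEA, FWA and PHE1 were not. The seed coat sums were 1152 and 982 in cuc1 cuc2 and 1172 and 1001 in Ler (PMEI6, described below, is among these markers). MUM2 alone gave 673 and 454 of the cuc1 cuc2 sums. The endosperm sums were 1143 and 925 in cuc1 cuc2 and 1112 and 960 in Ler.

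The description on the array did not always match the gene's current name. Of the 84 genes described as pectinesterases, 19 are named SKU5 or SKU5-SIMILAR (SKS) in RefSeq. They are relatives of multicopper oxidases, and SKU5 itself is a wall-associated protein known for its role in directional root growth, so they are given separately below. A further gene described as a pectinesterase, PMEI6 (AT2G47670), carries the name of a PME inhibitor, and the gene AT1G60390, described as a PG, is PG1, the non-catalytic beta subunit. By RefSeq names the 179 genes were thus 64 PMEs, 19 SKU5 relatives, 66 PGs, 1 PG beta subunit, 26 pectate lyases and 3 inhibitors.

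Most of the genes gave a usable signal in the embryos, but fewer than among all genes on the array. A probe was counted as measured when it was well above background on both arrays in at least 1 genotype, and 143 of the 179 genes (79.9%) met this, against 18669 of all 21500 (86.8%). Of the 143, 11 were measured through 1 genotype alone. In all 4 channels the criterion was met by 44 of the 64 PMEs (68.8%), 15 of the 19 SKU5 relatives (78.9%), 49 of the 66 PGs (74.2%) and 21 of the 26 pectate lyases (80.8%), and by 84.2% of all gene probes. The detection rate was nearly the same in both genotypes, with 140 of the 179 genes well above background on both arrays in cuc1 cuc2 and 135 in Ler. The genes that did not pass included several known from pollen. VANGUARD1 (VGD1, AT2G47040), a PME needed for pollen tube growth in the style, had signals of 76.3 and 40.4 in cuc1 cuc2 and 50.1 and 80.0 in Ler. The pollen tube PME PPME1 (AT1G69940) and the pollen pectate lyase AT59 (AT1G14420) were also below the criterion. Not all members linked to pollen failed it, since QRT1 and QRT2, described below, were well above background in all 4 channels. The only 2 genes measured in a single genotype and dim on both arrays in the other were sks18 (AT1G75790) and the PG AT1G60590, both dim in Ler. Their log2 ratios were -0.011 and 0.041 for sks18 and 0.054 and 0.74 for AT1G60590, each smaller than its error.

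**Figure D1:**
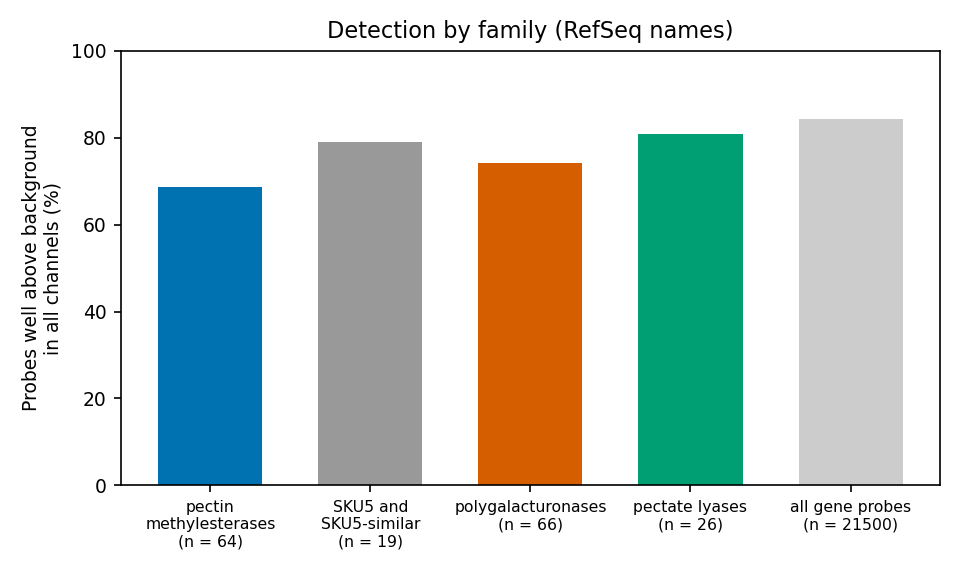
Share of probes that the scanner software classed as well above background in both genotypes on both arrays (percent), for 4 families named by RefSeq and for all gene probes, with the number of probes under each bar. PMEs had the lowest share (68.8%), and all gene probes together stood at 84.2%.

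No family's median lay far from that of all genes. The median log2 ratio of the measured genes was -0.0065 for the 65 measured genes described as PMEs, 0.00033 for the 54 PGs and -0.067 for the 22 pectate lyases, against -0.0045 for all 18669 measured gene probes. These medians were not steady between experiments 1 and 2. For the genes described as PMEs they were -0.011 and 0.052, for PGs 0.037 and -0.021, and for pectate lyases -0.056 and -0.035. For the 47 measured PMEs by RefSeq name they were -0.0058 and 0.11, and the median of the mean ratios was -0.0080. Over all members, measured or not, the medians were -0.0014 for PMEs, 0.0014 for PGs and -0.016 for pectate lyases. Of the 143 measured genes, 94 had a mean log2 ratio within 0.1 of 0, as did 10625 of the 18669 measured probes of the array. The measured PMEs ranged from -0.43 to 0.61, the PGs from -0.32 to 0.43 and the pectate lyases from -0.37 to 0.22. The SKU5 relatives were the most tightly spread of these 4 groups, from -0.18 to 0.10.

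**Figure D2:**
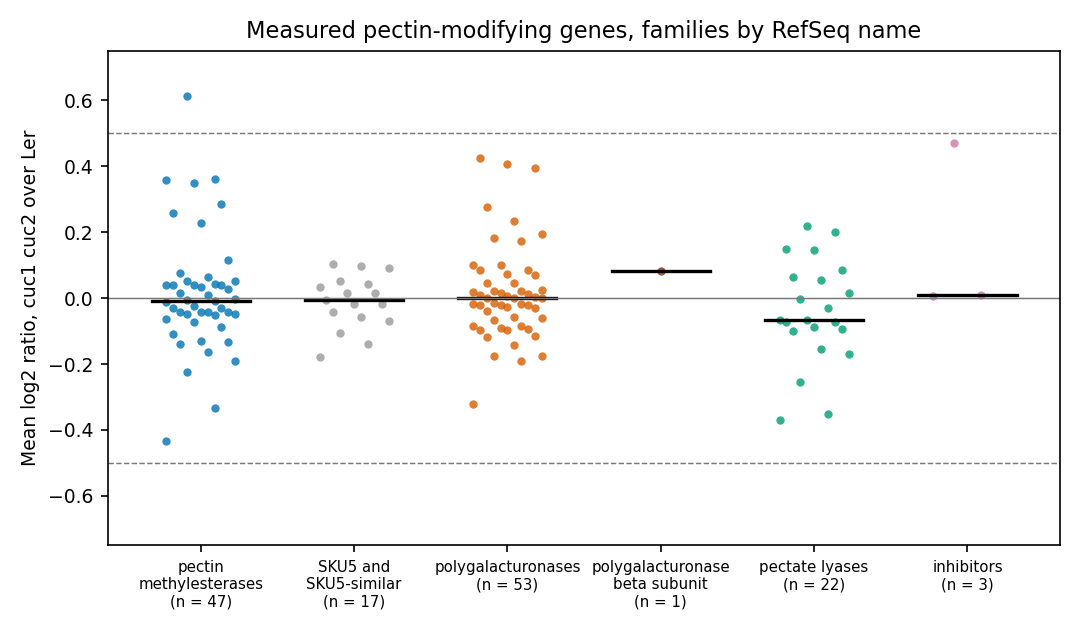
Average log2 ratio, with cuc1 cuc2 over Ler, of each measured gene (points, mean of the 2 hybridizations) by family as named in RefSeq, with the family median as a black bar and dashed lines at -0.5 and 0.5. The medians lie between -0.067 and 0.083, and PME5 at 0.61 is the single point beyond a dashed line.

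None of the 179 genes was called by the rule of the study's screening, which asks that the p-values of both hybridizations be under 0.01 and that the directions match. Among all 21500 gene probes that rule called 52 lower in cuc1 cuc2 (0.242%) and 108 higher (0.502%), so that 0 of 179 genes is a count close to that background. By size, a mean log2 ratio beyond 0.5 (1.41-fold) with the same sign in both hybridizations was reached by 1 of the 143 measured genes, which was higher in cuc1 cuc2. The background was 1.32% of measured probes higher and 0.67% lower. A weaker criterion asked that both log2 ratios exceed the scanner's error of that ratio with the same sign. It was met by 7 genes higher in cuc1 cuc2 and by 2 genes lower, that is by 3.91% and 1.12% of the 179, against 4.11% and 2.73% of all gene probes. These shares are at or below the background, so the 9 genes are described as values and not as calls.

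Among the PMEs the largest difference was that of PME5 (AT5G47500), the 1 gene past the fold. PME5 is known as a PME of the shoot apex whose expression in the inflorescence meristem is restricted by the homeobox protein BELLRINGER (BLR), and whose forced expression disturbs the pattern of organ initiation. Its signal was 8535 and 10306 in cuc1 cuc2, against 6433 and 5856 in Ler. Both values of cuc1 cuc2 lay above both values of Ler. Here and below, such a separation rests on 1 extract per genotype, and its share among all gene probes was not computed. The log2 ratios were 0.41 (error 0.17) in experiment 1 and 0.82 (error 0.17) in experiment 2, a mean of 0.61 or 1.53-fold, and the hybridizations differed from each other by 0.41. The deposited p-value was 2.88e-06 in experiment 2 but 0.0147 in experiment 1, which kept the gene out of the screening rule. The BLR probe (AT5G02030) went the other way in the same hybridizations. Its signals were 1125 and 1092 in cuc1 cuc2 and 1425 and 1358 in Ler, with log2 ratios of -0.34 (error 0.20) and -0.31 (error 0.18). Whether the lower BLR signal has a part in the PME5 value was not tested. The embryo markers OLEO1 and SESA3, an oil body and a storage protein gene of maturing seeds, were also higher in cuc1 cuc2, with mean log2 ratios of 0.60 and 0.71. The other 4 of the 6 embryo markers were near 0, ABI3 at 0.062, FUS3 at 0.035, LEC1 at 0.031 and the storage protein gene CRC at -0.0084, and whether the difference of OLEO1 and SESA3 has a part in the PME5 value was not tested.

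The other 3 PMEs with positive ratios beyond their error both times, PME3, PME12 and PME1, passed neither the p-value rule nor the fold. PME3 (AT3G14310), a PME widely active in vegetative tissue, had signals of 2096 and 2337 in cuc1 cuc2 and 1733 and 1714 in Ler. Its mean log2 ratio was 0.36 (error 0.13), from 0.27 and 0.45. PME12 (AT2G26440) had signals of 4906 and 4797 in cuc1 cuc2 and 3815 and 3761 in Ler, and its hybridizations were nearly equal, with log2 ratios of 0.36 and 0.35 (errors 0.17 each). In both of these genes the signals of the genotypes did not overlap. PME1 (AT1G53840) had signals of 1637 and 1771 in cuc1 cuc2 and 1409 and 1440 in Ler, a mean log2 ratio of 0.26 (error 0.13). Of all members, PME5 and PME12 alone had p-values of the scanner's error model under 0.05 on both arrays with the same sign. The share of all gene probes that met this looser limit was not computed, so these 2 genes are not set apart from the background. The PMEs AT5G19730 and PMEPCRA (AT1G11580) had mean log2 ratios of 0.35 and 0.28 with the same sign both times, but for AT5G19730 the value of experiment 1 was within its error (0.27, error 0.34), and for PMEPCRA that of experiment 2 was (0.23, error 0.24).

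PME17 (AT2G45220) was the measured PME with the lowest ratio. It is a PME with an inhibitor-like leading domain, known from roots and from the response to pathogens. Its signals were 1193 and 1001 in cuc1 cuc2 and 1686 and 1288 in Ler. The highest cuc1 cuc2 value was below the lowest Ler value. The log2 ratios were -0.50 (error 0.20) and -0.36 (error 0.19), a mean of -0.43, which is a signal 1.35-fold lower in cuc1 cuc2. The next lowest measured PMEs with the same sign in both hybridizations were near 0, PME31 (AT3G29090) at -0.072 and PME38 (AT4G00190) at -0.044, both within their errors. The PMEs with bright probes did not all share the direction of PME5. Of the 11 PMEs with every signal at least 1000 scanner units, 6 had a higher signal in cuc1 cuc2 both times, 3 had a lower one and 2 changed sign, with a median log2 ratio of 0.053. Among them PME44 (AT4G33220) had signals of 5181 and 6206 in cuc1 cuc2 and 5245 and 5510 in Ler, and AT5G09760 had 4677 and 5000 in cuc1 cuc2 and 4462 and 4870 in Ler.

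**Figure D3:**
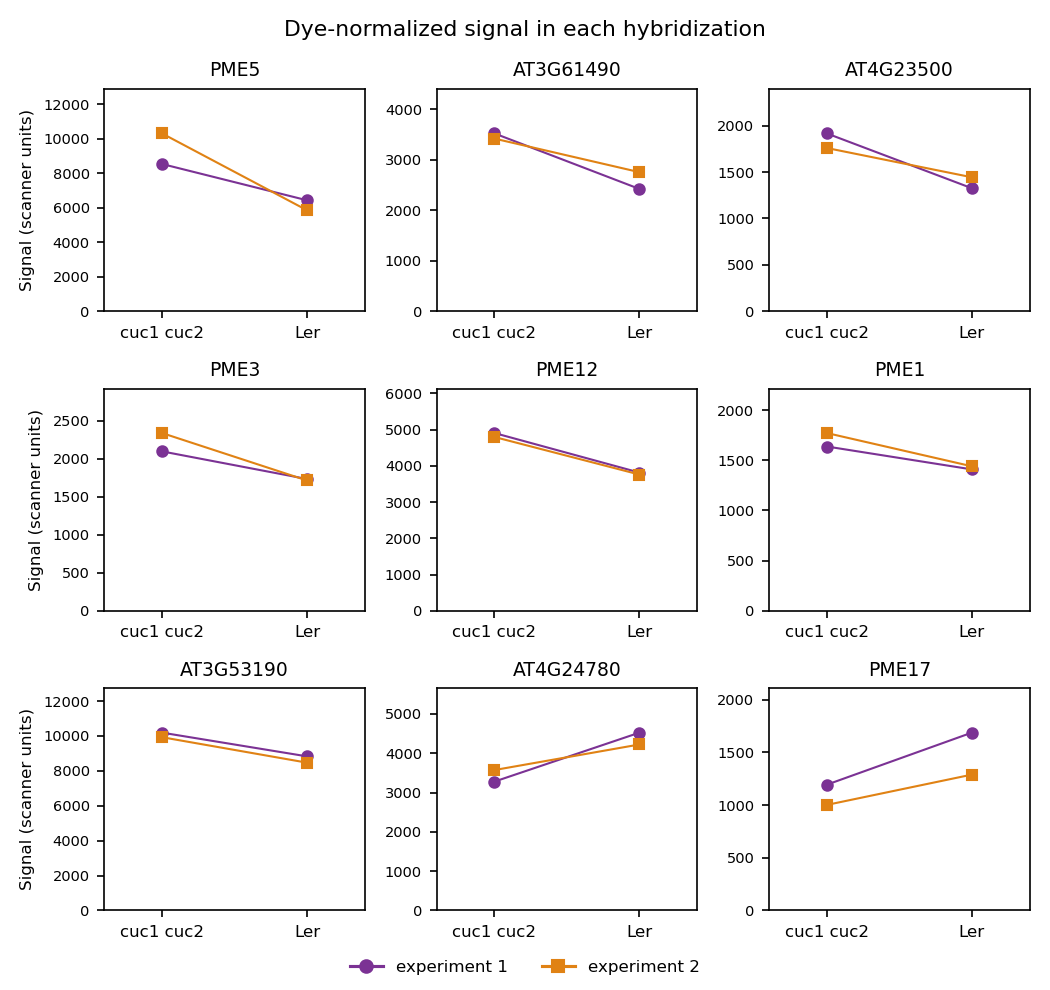
Dye-normalized signal (scanner units, axis from 0) in cuc1 cuc2 and Ler for the 9 genes beyond their error in both hybridizations, with circles for experiment 1 and squares for experiment 2, and a line joining the genotypes on 1 array. For the first 7 genes both cuc1 cuc2 values are above both Ler values, and for AT4G24780 and PME17 they are below them. The 9 genes were picked for ratios of the same sign beyond their error, which favors such a separation. Its share among all gene probes was not computed.

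Among the 66 PGs, 2 genes had positive ratios beyond their error in both hybridizations. AT3G61490 had signals of 3519 and 3417 in cuc1 cuc2 and 2421 and 2753 in Ler, with log2 ratios of 0.54 (error 0.18) and 0.31 (error 0.17). AT4G23500 had signals of 1916 and 1759 in cuc1 cuc2 and 1326 and 1444 in Ler, with log2 ratios of 0.53 (error 0.19) and 0.28 (error 0.18). In both genes every cuc1 cuc2 signal was above every Ler signal, and the mean ratios of 0.43 and 0.41 correspond to 1.34-fold and 1.33-fold. No PG was lower in cuc1 cuc2 beyond its error in both hybridizations. The lowest measured PGs with the same sign both times were AT2G43890, with log2 ratios of -0.37 (error 0.36) and -0.27 (error 0.38), and AT1G10640, with -0.11 (error 0.17) and -0.24 (error 0.17). Other measured PGs with positive ratios both times included AT1G60590 with a mean of 0.39, AT3G62110 with 0.23 (error 0.18), AT3G15720 with 0.20 (error 0.14) and AT5G41870 with 0.18 (error 0.13), each within its error in at least 1 hybridization. NIMNA (AT2G33160, listed as NMA), a PG known for cell elongation in the early embryo and its suspensor, had signals of 1107 and 612 in cuc1 cuc2 and 1025 and 648 in Ler, and a mean log2 ratio of 0.014. PGX1 (AT3G26610), a PG of expanding cells, had a mean of -0.020, and PGX3 (AT1G48100), a PG known from stomata, had 0.0099. ADPG1 (AT3G57510) and ADPG2 (AT2G41850, symbol PGAZAT), which act in organ abscission and in the opening of fruits and anthers, had means of -0.066 and 0.10, with errors of 0.23 and 0.36. The beta subunit PG1 had log2 ratios of -0.017 and 0.18.

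**Figure D4:**
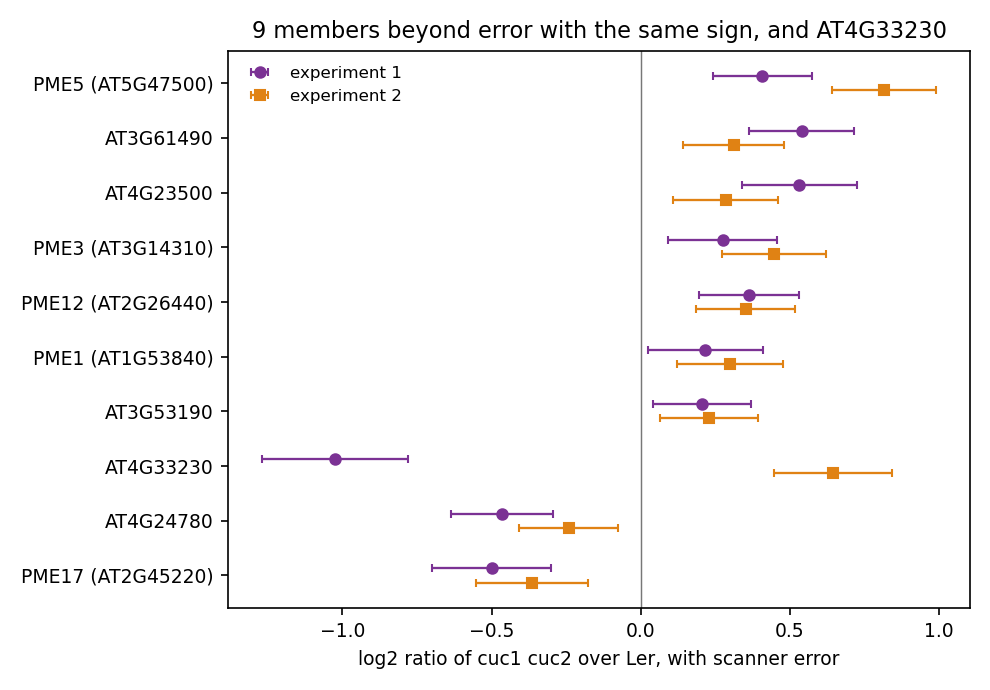
log2 ratio of cuc1 cuc2 over Ler in experiment 1 (circles) and experiment 2 (squares), with bars for the scanner's error of each ratio, for the 9 genes beyond their error with the same sign and for AT4G33230. The 7 genes at the top lie right of 0 in both hybridizations, AT4G24780 and PME17 lie left of 0, and the values of AT4G33230 lie on opposite sides.

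Pectate lyases had the lowest median of the 3 enzyme families, although with normexp and median centring that of PMEs was lower (-0.038 against -0.036), and they held 1 gene beyond its error both times in each direction. AT4G24780 had signals of 3279 and 3573 in cuc1 cuc2 and 4524 and 4223 in Ler. Both cuc1 cuc2 values were below both Ler values. The log2 ratios were -0.46 (error 0.17) and -0.24 (error 0.17), a mean of -0.35 or a signal 1.28-fold lower in cuc1 cuc2. AT3G53190 was higher in cuc1 cuc2, with signals of 10191 and 9929 in cuc1 cuc2 and 8832 and 8471 in Ler and log2 ratios of 0.21 and 0.23 (errors 0.16 each). The lyase with the lowest mean, AT1G67750 at -0.37, had an error of 0.33 and signals of 300.4 and 220.2 in cuc1 cuc2 and 330.3 and 334.1 in Ler. PMR6 (AT3G54920), a lyase-like protein needed for susceptibility to powdery mildew, had signals of 11388 and 11000 in cuc1 cuc2 and 11282 and 10168 in Ler, and a mean log2 ratio of 0.064 (error 0.12). Over the 22 measured lyases, 4 were higher in both hybridizations, 7 were lower in both and 11 changed sign.

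The SKU5 relatives, which the array describes as pectinesterases, showed no member beyond its error in both hybridizations with the same sign. SKU5 (AT4G12420) had signals of 6902 and 7603 in cuc1 cuc2 and 6970 and 7732 in Ler, with log2 ratios of -0.014 and -0.024. Its spot on the array of experiment 1 was the 1 spot of a member that the scanner software marked as non-uniform, outlying or saturated. sks4 (AT4G22010) had log2 ratios of 0.046 and 0.061, and sks17 (AT5G66920) had -0.0011 (error 0.20) and -0.21 (error 0.18). None of the 3 inhibitors differed beyond its error in both hybridizations with the same sign. PGIP1 (AT5G06860) and PGIP2 (AT5G06870) encode leucine-rich repeat proteins that bind fungal PGs. PGIP1 had log2 ratios of -0.61 and 0.63, and PGIP2 had 0.92 and 0.024, both smaller than their errors, and its Ler signal was not well above background in experiment 1. PMEI6, which regulates pectin in seed coat mucilage, had -0.23 and 0.25 with errors of 0.73 and 0.47.

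The remaining members with a known role in other organs showed no difference beyond their error in both hybridizations. QRT1 (AT5G55590), a PME, and QRT2 (AT3G07970), a PG, are both needed for the pollen grains of a tetrad to separate. QRT1 had log2 ratios of 0.62 and -0.64, and QRT2 had -0.17 and -0.11 with errors of 1.18 and 0.43. PME35 (AT3G59010, symbol PME61), known from the stem's supporting fibers, had a mean of -0.042, and PME58 (AT5G49180), known from seed coat mucilage, had -0.37 and 0.045. The probe of PME2 (AT1G53830), the neighbour of PME1, was not counted as measured. It was well above background in the Cy3 channel alone on both arrays, which held Ler in experiment 1 and cuc1 cuc2 in experiment 2. Its log2 ratios were opposite in sign, lower in cuc1 cuc2 in experiment 1, and each was within its error.

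How far the hybridizations repeated each other depended on the signal. The median difference between the log2 ratios of a gene in experiments 1 and 2 was 0.21 among the measured members and 0.15 among all measured probes. Of the 143 measured members, 83 (58.0%) changed sign between the hybridizations, against 48.7% of all measured probes. The 37 members with every signal at least 1000 repeated well, with 6 changes of sign (16.2%), against 35.9% of the 9203 array probes of that brightness. Across these 37 genes the Pearson correlation of the ratios of experiments 1 and 2 was 0.78, against 0.60 across the 9203 array probes. With the limit lowered to 500 it was 0.23 across 56 genes. Across the 95 other members that were well above background in all channels it was -0.70, against -0.25 across the array's 8899 probes of that kind. Of these 95 members, 69 (72.6%) changed sign, against 60.4% of those probes. In a dye swap, ratios of opposite sign beyond their errors follow the dye, whichever genotype it marks. Within its error the sign of a ratio is undecided, so a change of sign there does not show a dye effect. These genes share 2 arrays and 1 pair of extracts, so the coefficients are descriptions and carry no p-value. All 9 genes beyond their error with the same sign belonged to the brighter group. A typical error of the mean log2 ratio was 0.12 in the brighter group and 0.29 in the dimmer one.

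**Figure D5:**
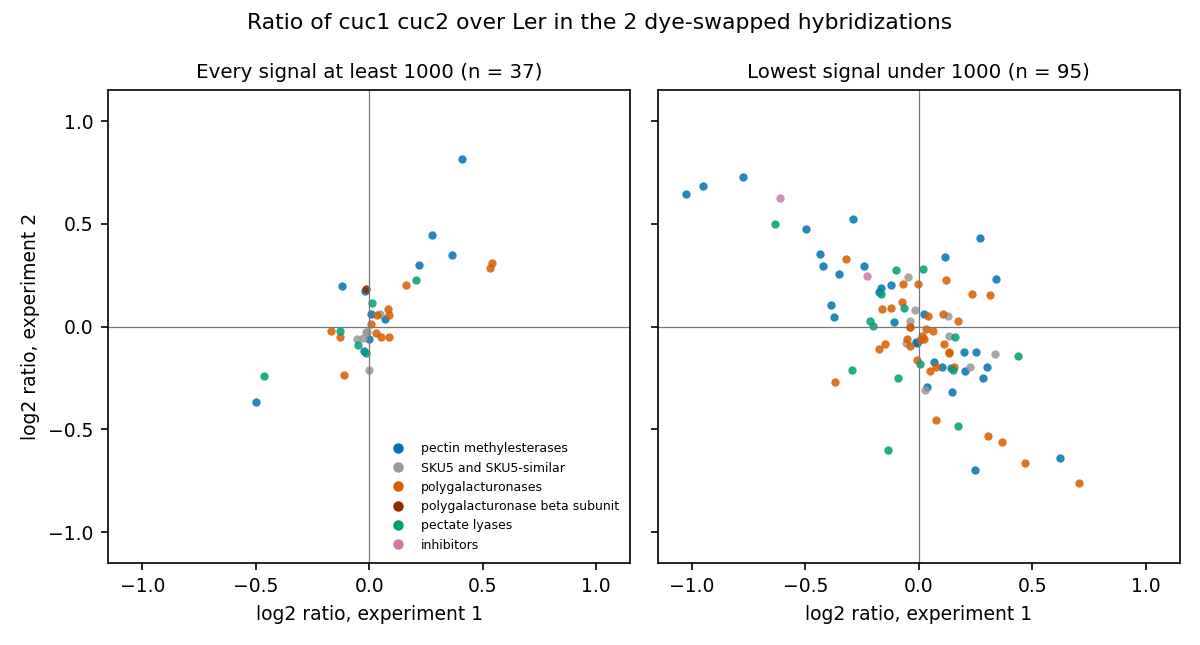
log2 ratio of cuc1 cuc2 over Ler in experiment 2 against experiment 1 for the 132 genes well above background in all channels, with colors for the families, split by whether every signal was at least 1000 (left, n = 37) or not (right, n = 95). On the left the points run from lower left to upper right, and on the right from upper left to lower right.

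Dye-following ratios reached the screening rule's p-value limit for 1 member. AT4G33230, described as a PME, had log2 ratios of -1.03 (error 0.24) and 0.64 (error 0.20), both with a deposited p-value under 0.01. Its signals were 628 and 1257 in cuc1 cuc2 and 1277 and 804 in Ler. The Cy3 signal was the higher on both arrays, whichever genotype it held. Such calls in opposite directions were made for 11 of all gene probes (0.0512%). Beyond their error with opposite signs were 4 members, the PMEs AT4G33230, AT3G47400 and AT3G05620 and the pectate lyase AT1G30350, all lower in cuc1 cuc2 in experiment 1 and higher in experiment 2, against 1.27% of all gene probes. AT3G47400 had -0.78 and 0.73, so that its mean of -0.023 hides 2 opposite values.

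Many of these genes lie next to each other in the genome. In the RefSeq order of protein-coding genes, in which 178 of the 179 genes have a place, 56 genes formed 24 runs of directly neighbouring members, of which 23 held a single family by name, and the longest run had 4 genes. In the 13 runs with at least 2 measured members, the mean log2 ratios of a run spanned 0.13 in the median, which is smaller than the members' median error of 0.24. The quartiles of the mean log2 ratios of all measured members were -0.072 and 0.054. The span of members that are not neighbours was not computed, so neighbours are not shown to be more alike than other members. PME12 and its neighbour AT2G26450 had positive ratios both times, with mean log2 ratios of 0.36 and 0.23, although AT2G26450 was within its error in experiment 1. PME3 at 0.36 stood beside ATPMEPCRC (AT3G14300), which had -0.44 and 0.35, and PME44 at 0.077 stood beside AT4G33230. In the run AT2G43870, AT2G43880 and AT2G43890, the outer genes were lower both times, with -0.80 and -0.72 for AT2G43870 (errors 3.27 and 1.94, not above background) and -0.37 and -0.27 for AT2G43890. Whether a probe also binds the transcript of a similar neighbour was not tested, because the probe sequences were not used here.

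Other genes that make or bind pectin, taken from fixed lists, were likewise near 0. Of 31 genes for pectin synthesis, which include the galacturonosyltransferases (GAUT), the epimerases that supply galacturonic acid (GAE) and the rhamnose synthases (RHM), 28 were on the array and measured, and none was called by either rule. Their median log2 ratio over the list was 0.021, from -0.24 to 0.36. RHM1 was higher beyond its error in both hybridizations, with log2 ratios of 0.23 and 0.49, and GAE6 was lower, with -0.23 and -0.26. Each is 1 of the 28 genes, against 4.11% of all gene probes higher and 2.73% lower by that criterion. These genes and PAE4 below are given as values and not as calls. Of 12 pectin acetylesterases, which remove acetyl groups from pectin, 10 were on the array with a median of -0.0068, none was called, and PAE4 was higher beyond its error with 0.34 and 0.27. Of 7 rhamnogalacturonan lyases 6 were on the array, 4 were measured and none was called. The wall-associated kinases (WAK), receptors that bind pectin, were 5 genes of which 3 were measured. WAK1 was past the fold with a mean of -0.50, but its log2 ratios of -0.12 and -0.89 had errors of 1.50 and 1.01. By the fold rule 0.67% of all measured gene probes were lower.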

How the data were processed

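Each of the 2 arrays was an Agilent 2-colour Arabidopsis oligonucleotide array with 22575 spots, scanned and extracted with Agilent Feature Extraction 7.5.1, per the file headers. The deposited intensity columns hold spot brightness from which a fitted background surface had been subtracted and which had been dye-normalized by a linear and a lowess step. The deposited log10 ratio is red over green, with an error and a deposited p-value from the scanner's error model. That normalization sets the median ratio of an array to 0, so each value is relative to the bulk of transcripts, and the subtraction can make ratios of dim spots unstable. The authors' series table held the same log10 ratios to within 1.66e-09 on the log2 scale and gave no separate result. The labels call the arrays technical replicates, and they number them the other way round from experiments 1 and 2 here.

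Control spots were left out, the dye labels gave each ratio its direction, cuc1 cuc2 over Ler, on the log2 scale, and both hybridizations were averaged (Python 3.11.15, numpy 2.4.6, pandas 2.3.3). Alternatives used limma 3.58.1 in R 4.3.3. The calls and averages were run on simulated data, with changed genes placed on brighter probes and the scanner's errors drawn independently for each array. No gene-specific dye effect was simulated, so the simulation does not test dim or dye-following ratios. Named genes were those past either rule, up to 6 highest and 6 lowest measured genes of each family with the same sign both times, genes dim in 1 genotype with a bound above 1.5-fold, known-role genes and called genes of the related lists. Other genes named, such as NIMNA, AT4G33230 and neighbours of named genes, were chosen after their values were seen. The family medians over measured genes and over all members follow the array's descriptions unless RefSeq names are stated. The family plots, detection shares and brightness groups follow RefSeq names. A likeness of probe sequences was not computed. No genome build is named by the arrays, so no coordinates are given. The members and lists were chosen with earlier results of these data known. No test across biological replicates was possible with 1 extract per genotype, and the number of arrays limits the precision.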

Additional observations from a re-analysis of the deposited data

How the results depend on the processing

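With a limit of 0.05 on both deposited p-values, 2 members were called higher (PME5 and PME12), against 0 at 0.01, and no member was called lower. With either hybridization alone at 0.01, between 0 and 2 were lower and 2 were higher. The count past the fold was 0 lower and 1 higher, and became 4 lower and 8 higher at a limit of 0.3, 0 higher at a limit of 1, 1 lower and 2 higher without a filter on dim probes, and 8 lower and 5 to 11 higher in either hybridization alone. Beyond the error in a single hybridization were 8 to 11 members lower and 10 to 21 higher. The shares of all gene probes at these changed limits were not computed, so these counts have no background beside them. At the main limits more of the array's probes were higher than lower as well, 0.502% against 0.242% by the p-value rule and 1.32% against 0.67% by the fold. The median of the genes described as PMEs lay between -0.011 and 0.052 in the hybridizations alone. The pectate lyase median of -0.067 moved to -0.023 with normexp and loess, -0.036 with normexp and median centring (PMEs -0.038, so that their order turned), -0.011 without background correction, -0.024 with plain subtraction and -0.016 without a filter on dim probes, and lay between -0.056 and -0.035 in the hybridizations alone. The PG median moved by less than the spread between the hybridizations under each alternative tried. The cause of these moves was not tested. With the 4 other pairings of background correction and normalization PME5 lay between 0.56 and 0.60, with a positive sign in both hybridizations, and PME17 between -0.34 and -0.27. AT3G53190 kept its sign in both hybridizations in 3 of the 4. Dim signals limit the rest, since 36 of the 179 genes were not measured and 69 of the 95 dimmer ones changed sign between the hybridizations.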

Other observations

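Genes of related function whose array description does not name a pectin enzyme fell outside the 179 genes. QRT3 (AT4G20050), the PG that acts with QRT1 and QRT2 in the separation of pollen grains, is described on the array as a putative protein. Its signals were 239 and 217 in cuc1 cuc2 and 251 and 265 in Ler, with log2 ratios of -0.073 (error 0.64) and -0.29 (error 0.46). The PME inhibitor PMEI1 (AT1G48020), described as a hypothetical protein, had log2 ratios of -0.82 (error 1.29) and 0.91 (error 1.17), opposite in sign and each within its error. The description search therefore does not hold every gene of these families, and counts of families refer to the described genes alone.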
